A study of Homo sapiens with 6 samples.

Results

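The 9 genes described here encode enzymes that make serine, pass its one-carbon unit through the folate cycle, and make asparagine. They are PHGDH, PSAT1, PSPH, SHMT1, SHMT2, MTHFD1, MTHFD1L, MTHFD2 and ASNS. They were taken by symbol from the 61541 genes of the count table, and each symbol matched 1 row. The libraries were bulk RNA-seq of H9, an established human line of cutaneous T-cell lymphoma labelled as wild type. Cells received either the vehicle DMSO or AZD4573, a selective inhibitor of CDK9, the kinase that releases paused RNA polymerase II into elongation. AZD4573 was used at 50 nM, and the label of each AZD4573 library gives 4 h, whereas the DMSO labels give no time. Each group held 3 libraries, all from 1 cell line, and nothing states that they came from separate cultures, so p-values measure only the spread between these libraries. The comparison asks which transcripts differ in level after a short loss of CDK9 activity.

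Serine is made from the glycolytic intermediate phosphoglycerate in 3 consecutive steps, catalysed by PHGDH, PSAT1 and PSPH. The serine hydroxymethyltransferases then split serine into glycine and a one-carbon unit carried on folate, SHMT1 in the cytosol and SHMT2 in mitochondria. The MTHFD enzymes convert that folate-bound carbon between its oxidation states, so that mitochondria can export formate and the cytosol can use it for purines and thymidylate. Asparagine synthetase, ASNS, transfers an amino group from glutamine to aspartate. In proliferating lymphocytes these pathways supply nucleotides and protein synthesis, and the transcription factor ATF4 is known to induce many of their genes when amino acids run short.

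The libraries held 52101868 to 76571157 counts, with the 3 AZD4573 libraries below the 3 DMSO libraries. Summed T-cell markers stood at 1540 to 1581 CPM (counts scaled to the size of the library) in DMSO and 2045 to 2098 CPM in AZD4573. Of the 12 T-cell markers 11 passed the filter on low counts, although CD2, CD7 and CD4 were low. B-cell markers summed to 61.0 to 67.0 CPM and to 92.5 to 103 CPM, nearly all from CD79A, and epithelial, stromal and erythroid markers to 155 to 172 CPM and 136 to 140 CPM, nearly all from EPCAM. Myeloid markers did not exceed 0.649 CPM in any library, and KRT14, HBB and FCGR3A were at 0. The part of these markers in the results was not tested.

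Promoter sequences are shown for the members in which a motif linked to amino-acid stress or to MYC-family factors was found, because such factors are known regulators of genes in these pathways. RefSeq promoters (GRCh38.p14, 250 bases before to 50 after the start) were matched for 7 members, with no entry for PSPH and SHMT2. The C/EBP-ATF core TGATGNAA was searched on both strands and occurred in 3.62% of the 35116 promoters of that length, or in at least 1 promoter of 4.46% of the 27305 genes listed. The E-box CACGTG, also searched on both strands, occurred in 7.26% of promoters and in 8.77% of genes, and no match of the 2 motifs overlapped another in the members. The core was found in 2 members, ASNS and MTHFD1L, and the E-box in 2, MTHFD1 and MTHFD1L. In the windows below, capitals mark the match.
ASNS core, chr7:97872458-97872487, minus strand, starting 68 bases before the first listed RefSeq start: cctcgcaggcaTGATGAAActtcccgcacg
MTHFD1L core, chr6:150866346-150866375, plus strand, starting 129 bases before the first listed RefSeq start: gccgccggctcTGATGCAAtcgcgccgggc
MTHFD1L E-box, chr6:150866321-150866348, plus strand, starting 154 bases before the same start: acgcccggctcCACGTGcgcagccggcc
MTHFD1 E-box, chr14:64388327-64388354, plus strand, starting 15 bases before the RefSeq start: cagtccctaagCACGTGggttgggttgt

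All of these windows lie inside the GENCODE spans of their genes given below, whose outermost start is farther upstream than the RefSeq start used here. Both MTHFD1L matches lay in 3 of its 4 listed promoters, which overlap. Neither motif was found in the promoters of PHGDH, PSAT1, SHMT1 and MTHFD2, or in the second listed promoter of ASNS. The 250 bases before the PSAT1 start are shown because PSAT1 was the 1 member with almost no reads.
PSAT1 upstream region, chr9:78296875-78297124, plus strand, no capitals because no motif was found: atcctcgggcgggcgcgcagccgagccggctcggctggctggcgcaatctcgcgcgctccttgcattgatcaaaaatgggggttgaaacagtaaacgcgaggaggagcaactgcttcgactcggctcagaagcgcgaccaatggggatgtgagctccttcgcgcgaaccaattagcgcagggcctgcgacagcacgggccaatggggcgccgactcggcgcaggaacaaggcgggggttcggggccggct

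The PSAT1 promoter of 300 bases had a GC content of 66.0%, against a median of 58.7% over all listed promoters, and held 37 CpG dinucleotides, 1.14 times the number its base composition gives. Among the member promoters, the number of CpG dinucleotides ran from 5 in the fourth listed promoter of MTHFD1L to 41 in its second.

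With libraries scaled by TMM, transcripts of 7 of the 9 enzymes were higher with AZD4573, SHMT1 was lower and PSAT1 was too low for the test. PSAT1 was removed by the filter on low counts, which left 8 members among 17678 genes. A gene was called at an adjusted p under 0.05 in the quasi-likelihood test of edgeR, adjusted over all tested genes by the Benjamini-Hochberg method. In this comparison 37.3% of all tested genes were called higher and 37.4% lower, so that a call alone was common. With a fold change of at least 1.5 as well, 4 members were higher (PHGDH, PSPH, SHMT2 and ASNS), against 22.7% of all tested genes, while SHMT1 did not reach the fold that 23.7% of genes reached downward. The groups did not overlap in 7 members that were higher, against 39.0% of tested genes, and in SHMT1, against 38.7% lower. The median log2 fold change was 0.50 over the 8 members and 0.03 over all tested genes. Summed over the 9 members, levels were 1699, 1614 and 1589 CPM in DMSO and 2239, 2387 and 2446 CPM in AZD4573.

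**Figure D1:**
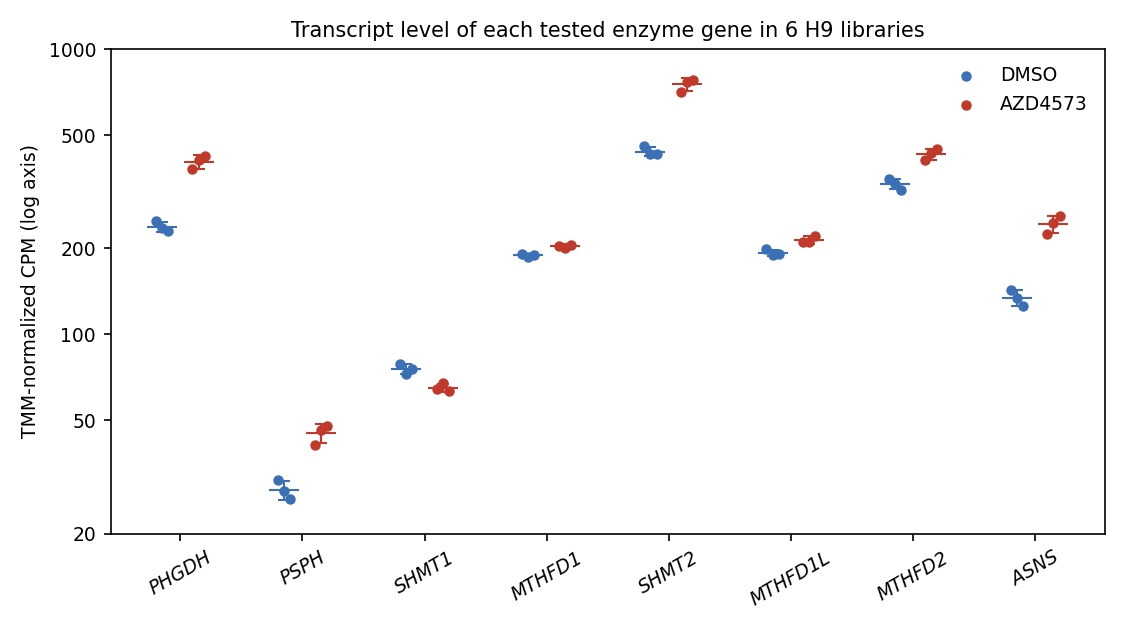
TMM-normalized CPM (log axis) of the 8 tested enzyme genes, 1 point per library, with the group mean and SD; blue is DMSO and red is AZD4573. The red points lie above the blue ones in every gene but SHMT1, where they lie below.

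PHGDH, which catalyses the first step of serine synthesis and commits the glycolytic intermediate to that route, lies on the plus strand at chr1:119648411-119744218 (GRCh38) and is annotated with 12 exons in its main transcript. Its levels were 249.6, 236.2 and 229.7 CPM in DMSO and 378.6, 409.7 and 422.4 CPM in AZD4573. All 3 treated libraries stood well above all 3 control libraries. The mean rose 1.69-fold, from 238.5 ± 10.2 to 403.6 ± 22.5 CPM (SD, n = 3 libraries each), with a log2 fold change of 0.76 (SE 0.0494, edgeR adjusted p = 1.0e-08).

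PSAT1, the transaminase of the middle step, lies on the plus strand at chr9:78297125-78330093. It had 2, 0 and 0 counts in DMSO and 2, 7 and 13 counts in AZD4573, where a count of 0 allows up to 3 counts, or 0.0392 to 0.0576 CPM depending on the library. The gene was thus nearly silent in both groups, at most 0.213 CPM, while the genes of the steps before and after it, PHGDH and PSPH, passed the filter. Pooled over libraries, 22 counts against 2 gave a ratio of 14.6 with an exact 95% interval of 3.60 to 128, which covers counting error only. Without the filter on low counts, the fit across 31323 genes gave edgeR adjusted p = 0.0087 for PSAT1. Its 4 annotated pseudogenes were at 0 in every library.

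PSPH, the phosphatase that releases free serine in the last step, lies on the minus strand at chr7:56011051-56051604. It was measured at 30.77, 28.20 and 26.45 CPM in DMSO and at 40.97, 46.09 and 47.74 CPM in AZD4573. Again the lowest treated library was above the highest control. The rise from 28.5 ± 2.18 to 44.9 ± 3.53 CPM (SD, n = 3) amounted to 1.58-fold, or 0.66 on the log2 scale (SE 0.0706, edgeR adjusted p = 1.5e-06).

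Of the pair that splits serine, SHMT2, the mitochondrial enzyme, lies in a short locus on the plus strand at chr12:57229573-57234935. Its transcripts reached 456.5, 427.8 and 429.1 CPM in DMSO and 707.5, 770.5 and 780.0 CPM in AZD4573. The treated libraries were all far above the controls. The mean rose 1.72-fold, from 437.8 ± 16.2 to 752.7 ± 39.4 CPM, with a log2 fold change of 0.78 (SE 0.0482, n = 3, edgeR adjusted p = 6.2e-09). SHMT2 shares 8.4% of its exon bases with genes on the opposite strand, ENSG00000276727 (4 to 15 counts) and NDUFA4L2 (160 to 444 counts).

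SHMT1, the cytosolic counterpart, lies on the minus strand at chr17:18327860-18363563 and went the other way. It stood at 78.48, 72.78 and 75.28 CPM in DMSO and at 64.32, 67.45 and 63.16 CPM in AZD4573. The treated libraries were all below the controls, but the distance was small. The mean fell 1.16-fold, from 75.5 ± 2.86 to 65.0 ± 2.22 CPM, with a log2 fold change of -0.22 (SE 0.0487, n = 3, edgeR adjusted p = 0.0012). SHMT1 shares 197 exon bases with SMCR8, a gene on the opposite strand, and counting that ignores strand cannot tell their reads apart there. SMCR8 had 4117 to 5562 counts, beside 3273 to 6157 for SHMT1.

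MTHFD2, the mitochondrial dehydrogenase and cyclohydrolase that is typical of proliferating and embryonic cells, lies on the plus strand at chr2:74186172-74217565. It stood at 351.2, 337.8 and 322.0 CPM in DMSO and at 408.0, 434.2 and 445.6 CPM in AZD4573. The groups did not overlap, with a smaller gap than for SHMT2. The mean rose 1.27-fold, from 337.0 ± 14.6 to 429.3 ± 19.2 CPM (log2 fold change 0.35, SE 0.0470, n = 3, edgeR adjusted p = 1.4e-05). SLC4A5, on the opposite strand, shares 1324 exon bases with MTHFD2 and had 304 to 523 counts.

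MTHFD1L, the mitochondrial synthetase that releases formate, spans 236.2 kb on the plus strand at chr6:150865679-151101887. Its levels were 198.5, 189.1 and 190.7 CPM in DMSO and 210.3, 211.5 and 221.9 CPM in AZD4573. The treated libraries were higher without overlap, by little. The mean rose 1.11-fold, from 192.8 ± 5.04 to 214.6 ± 6.40 CPM (log2 fold change 0.15, SE 0.0415, n = 3, edgeR adjusted p = 0.0041). The call was lost when libraries were scaled by size only (edgeR adjusted p = 0.24) or no filter was applied (0.065).

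MTHFD1, the cytosolic trifunctional enzyme that takes up formate again, lies on the plus strand at chr14:64388031-64463457. It was measured at 190.9, 187.4 and 190.0 CPM in DMSO and at 204.3, 201.5 and 206.5 CPM in AZD4573. These libraries were tightly grouped and did not overlap. The mean rose 1.08-fold, from 189.4 ± 1.81 to 204.1 ± 2.48 CPM (log2 fold change 0.11, SE 0.0380, n = 3, edgeR adjusted p = 0.020). The call was lost without DMSO replicate 2 (edgeR adjusted p = 0.13), without DMSO replicate 3 (0.081) or without AZD4573 replicate 3 (0.075). It was lost too with library size only (0.93) or no filter (0.34), and the log2 fold change of MTHFD1 had a percentile of 53.7 among all tested genes. MTHFD1 shares 11.1% of its exon bases with genes on the opposite strand, where counting that ignores strand cannot tell reads apart. Among these genes, ENSG00000272909 shares 1556 bases (76 to 124 counts) and ZBTB25 178 bases (1110 to 2389 counts).

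ASNS, which makes asparagine, lies on the minus strand at chr7:97851677-97872542 and, with its own counts alone, had the largest log2 fold change of the 8 tested members. It stood at 142.9, 134.3 and 125.4 CPM in DMSO and at 225.1, 245.6 and 259.0 CPM in AZD4573. Every treated library was far above every control. The mean rose 1.81-fold, from 134.2 ± 8.78 to 243.2 ± 17.1 CPM, with a log2 fold change of 0.86 (SE 0.0587, n = 3, edgeR adjusted p = 1.7e-08), a percentile of 82.1 among all tested genes. A long noncoding gene on the same strand, ENSG00000284707, shares 2415 of the 4896 exon bases of ASNS and had 3426 to 4091 counts, which the authors' counting could have split between them. With the counts of both genes summed, a choice made after seeing the data, levels were 192.2, 181.6 and 180.9 CPM in DMSO and 292.5, 311.1 and 324.2 CPM in AZD4573, and the log2 fold change was 0.74 (SE 0.0468, edgeR adjusted p = 7.6e-09). ASNS then came after SHMT2 (0.78) and PHGDH (0.76).

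Counts of a gene are relative to all other transcripts of its library, and RNA per cell was not measured. Fewer transcripts per cell and a change in the rest of the RNA cannot be told apart. The 13 mRNAs encoded by mitochondrial DNA, which RNA polymerase II does not make, took 3.04% to 3.22% of counts in DMSO and 4.67% to 4.98% in AZD4573. Scaled to them, all tested genes had a median log2 fold change of -0.71 in place of 0.03. Then 4 members were lower (SHMT1, MTHFD1, MTHFD1L and MTHFD2) and 0 were higher, beside 11878 lower and 2144 higher of all 17678 tested genes. On that scale ASNS stood at 0.12, SHMT2 at 0.04, PHGDH at 0.02 and PSPH at -0.08, none of them called. With library size alone the median of all genes was -0.08, and 5 members were higher and 1 lower. Of all tested genes that setting called 5741 higher and 7347 lower. A change of scaling factors shifts all genes by nearly 1 common amount, so values relative to the median of all genes hold by construction. They differed by at most 0.01 between TMM and mitochondrial scaling, which says nothing about the stability of the members. These relative values were 0.83 for ASNS, 0.73 for PHGDH, 0.63 for PSPH and -0.24 for SHMT1. Without the filter on low counts, relative values were 0.70 for ASNS, 0 for MTHFD1L and -0.05 for MTHFD1, against 0.83, 0.13 and 0.08 with it. The median they refer to was then 0.11 over 31323 genes, in place of 0.03 over 17678. The log2 fold changes themselves were 0.82 in place of 0.86 for ASNS and 0.11 in place of 0.15 for MTHFD1L.

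**Figure D2:**
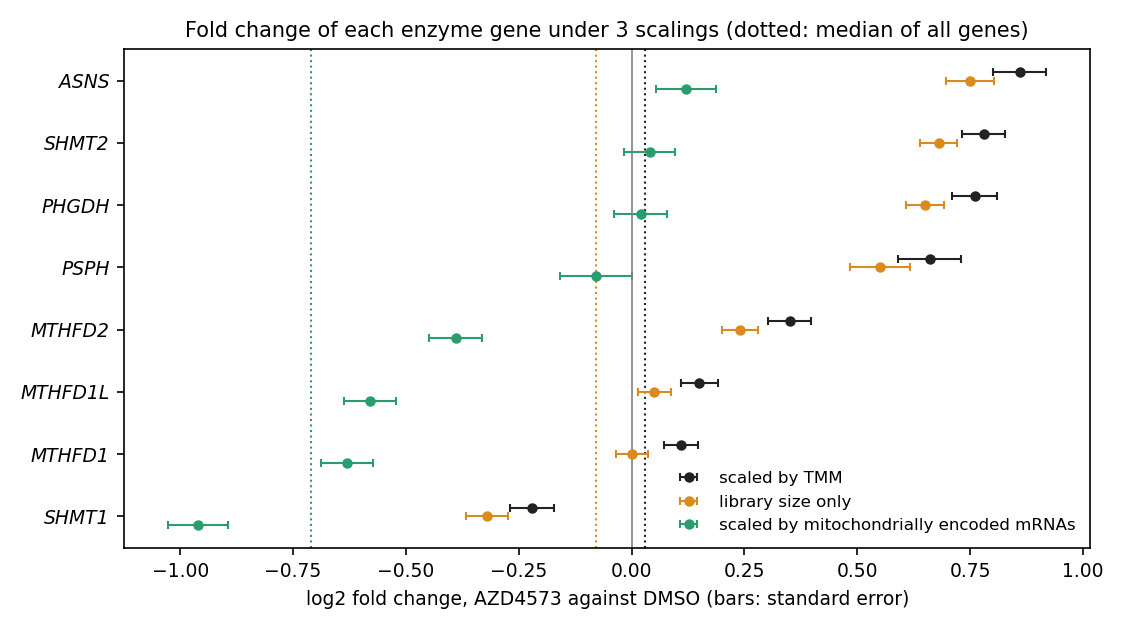
Log2 fold change (AZD4573 against DMSO, bars are SE) of the 8 tested enzyme genes under 3 scalings, with dotted lines at the median of all tested genes for each scaling. All points shift with the scaling, together with the median, and ASNS lies highest and SHMT1 lowest under each.

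Ratios between members within a library do not depend on the scaling. For the 2 enzymes that split serine, the log2 ratio of SHMT2 to SHMT1 counts was 2.54, 2.56 and 2.51 in DMSO and 3.46, 3.51 and 3.63 in AZD4573. The ratio was 1.00 higher with AZD4573 on the log2 scale, without overlap between groups. A two-sided exact permutation test over libraries gave p = 0.1, the smallest that 3 against 3 libraries allow, and 0.133 after Benjamini-Hochberg adjustment over 4 ratios. For MTHFD2 over MTHFD1, again mitochondrial over cytosolic, the log2 ratio was 0.88, 0.85 and 0.76 in DMSO and 1.00, 1.11 and 1.11 in AZD4573, a difference of 0.24 (exact p = 0.1, adjusted 0.133). MTHFD1L over MTHFD1, the synthetase pair, overlapped between groups, at 0.06, 0.01 and 0.01 in DMSO and 0.04, 0.07 and 0.10 in AZD4573 (difference 0.05, exact p = 0.2, adjusted 0.2). The 3 ratios of a mitochondrial to a cytosolic enzyme thus differed between groups by 0.05 to 1.00, and the differences among them were not tested. Within serine synthesis, PSPH over PHGDH was -3.02, -3.07 and -3.12 in DMSO and -3.21, -3.15 and -3.15 in AZD4573, a difference of -0.10 (exact p = 0.1, adjusted 0.133). On a linear scale this is 1.07-fold. A ratio of PSAT1 to PHGDH could not be formed, because PSAT1 was at 0 in 2 libraries.

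**Figure D3:**
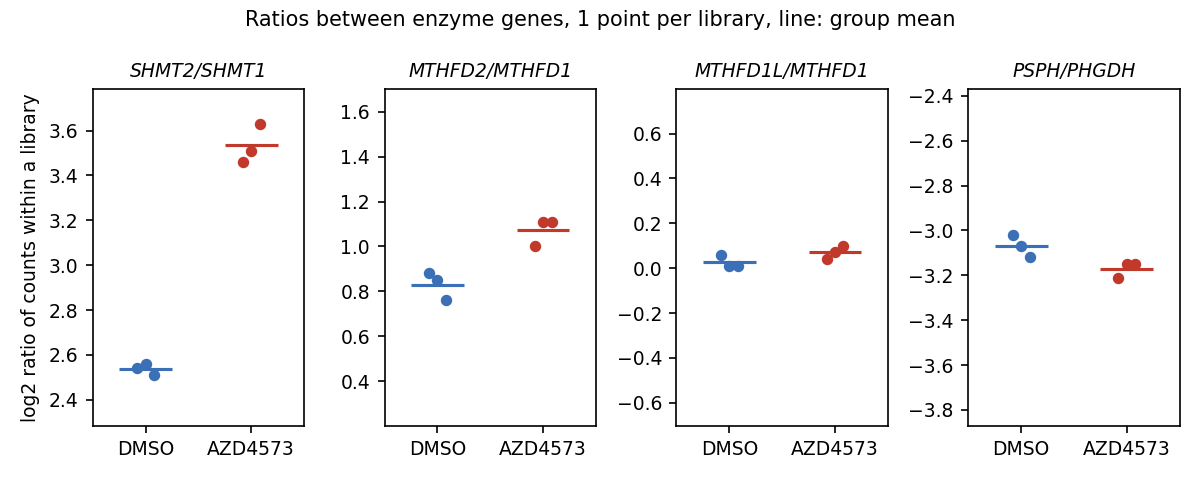
Log2 ratio of the counts of 2 enzyme genes within each library, with the group mean as a line; the 4 panels have axes of equal height in log2 units. The SHMT2 to SHMT1 ratio is 1.00 higher in AZD4573 than in DMSO, whereas the group means of the other ratios differ by 0.24 or less.

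Levels can be compared between genes only per length. On the scale of CPM per kb of the main annotated transcript, SHMT2 was at 203 ± 7.51 in DMSO (SD, n = 3), followed by PHGDH at 128 ± 5.44 and MTHFD2 at 76.5 ± 3.32, with no overlap among the libraries of these 3. MTHFD1 (60.1 ± 0.576), ASNS (56.3 ± 3.67) and MTHFD1L (55.9 ± 1.46) came next, and the ASNS libraries overlapped with those of both neighbours. All ASNS values in this paragraph use its own counts alone. With ENSG00000284707 summed, ASNS held 192.2, 181.6 and 180.9 CPM in DMSO in place of 142.9, 134.3 and 125.4. Its place among its neighbours in either group therefore depends on that choice. SHMT1 at 29.9 ± 1.13 and PSPH at 14.4 ± 1.10 were lower and separate, and PSAT1 came last at 0.004. In AZD4573 the order was SHMT2 (349 ± 18.3), PHGDH (216 ± 12.1), then ASNS (102 ± 7.16) overlapping with MTHFD2 (97.5 ± 4.38), then MTHFD1 (64.7 ± 0.794) overlapping with MTHFD1L (62.2 ± 1.85), then SHMT1 (25.7 ± 0.878), PSPH (22.8 ± 1.79) and PSAT1 (0.057). Per kb of all annotated exons joined, the order in the middle differed, with MTHFD1L (39.4) second after SHMT2 (95.3) in DMSO, and PHGDH (26.0) below MTHFD2 (29.5) and ASNS (27.4), while MTHFD1 was at 10.9. In AZD4573 ASNS was at 49.7 and MTHFD2 at 37.5 on that scale. The transcript lengths of the authors' counting program were not used here.

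The enzymes and carriers around these members did not move in 1 direction. Nor did all tested genes, of which 37.4% were called lower and 37.3% higher. Of 14 other folate-cycle genes, 11 were tested, 8 were lower and 1 was higher, with a median log2 fold change of -0.48. MTHFS, which recycles formyltetrahydrofolate, fell from 17.8 ± 2.32 to 6.19 ± 0.833 CPM (log2 fold change -1.53, edgeR adjusted p = 3.3e-08). The 3 folate carriers of the list were lower: SLC19A1 and SLC46A1 of the plasma membrane at -1.02 (adjusted p = 2.2e-09) and -0.48 (adjusted p = 0.0068), and SLC25A32, which imports folate into mitochondria, at -1.33, from 60.9 ± 1.75 to 24.2 ± 0.290 CPM (adjusted p = 1.0e-10). TYMS, which uses the one-carbon unit for thymidylate, rose from 221.7 ± 7.05 to 281.5 ± 13.4 CPM (0.34, adjusted p = 1.1e-05).

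Glycine made by SHMT can be broken down by the glycine cleavage system, whose 4 genes were all tested. AMT, its aminomethyltransferase, rose from 3.44 ± 0.277 to 12.9 ± 0.332 CPM (log2 fold change 1.91, edgeR adjusted p = 6.9e-10), and GLDC, the decarboxylase, rose by 0.14 (adjusted p = 0.0089). GCSH (-0.03) and DLD (0.07) did not pass. The list median was 0.11.

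In the methionine cycle and transsulfuration, which draw on the folate-bound methyl group and on serine, 8 of 9 genes were tested, 4 were lower and 4 higher, with a median of -0.07. MAT2A, which makes S-adenosylmethionine, fell from 789.7 ± 16.2 to 314.3 ± 17.7 CPM (log2 fold change -1.33, edgeR adjusted p = 6.5e-11). CTH, the last enzyme of transsulfuration, rose from 31.7 ± 0.758 to 50.7 ± 2.56 CPM (0.68, adjusted p = 7.8e-08).

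Among 10 serine and glycine carriers and serine-using enzymes, 9 were tested, 3 were lower and 2 higher, and the median was -0.03. The carriers of neutral amino acids SLC1A5 (-1.10, from 155.7 ± 3.50 to 72.8 ± 2.41 CPM, edgeR adjusted p = 1.6e-10) and SLC1A4 (-0.64, adjusted p = 1.1e-08) fell. SLC6A9, a glycine carrier with few reads, rose by 0.94, from 1.93 ± 0.172 to 3.72 ± 0.461 CPM (adjusted p = 4.8e-05).

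Of 7 aspartate, asparagine and glutamine genes, 6 were tested, 3 were lower and 2 higher, with a median of 0.02. GLUL, which makes the glutamine that ASNS uses, fell from 32.1 ± 1.90 to 14.1 ± 0.498 CPM (log2 fold change -1.19, edgeR adjusted p = 1.9e-09), and GOT1, which interconverts aspartate and oxaloacetate, rose from 34.6 ± 1.42 to 52.5 ± 0.940 CPM (0.60, adjusted p = 1.5e-07). ASNSD1, a gene with an asparagine synthetase domain, was lower by contrast with ASNS (-1.01, adjusted p = 1.4e-08). These lists were described by their counts beside the 37.4% lower and 37.3% higher of all tested genes, and no test of a list was run. These directions are those under TMM, and scaled to mitochondrial mRNAs 1 gene of the 5 lists was called higher.

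**Figure D4:**
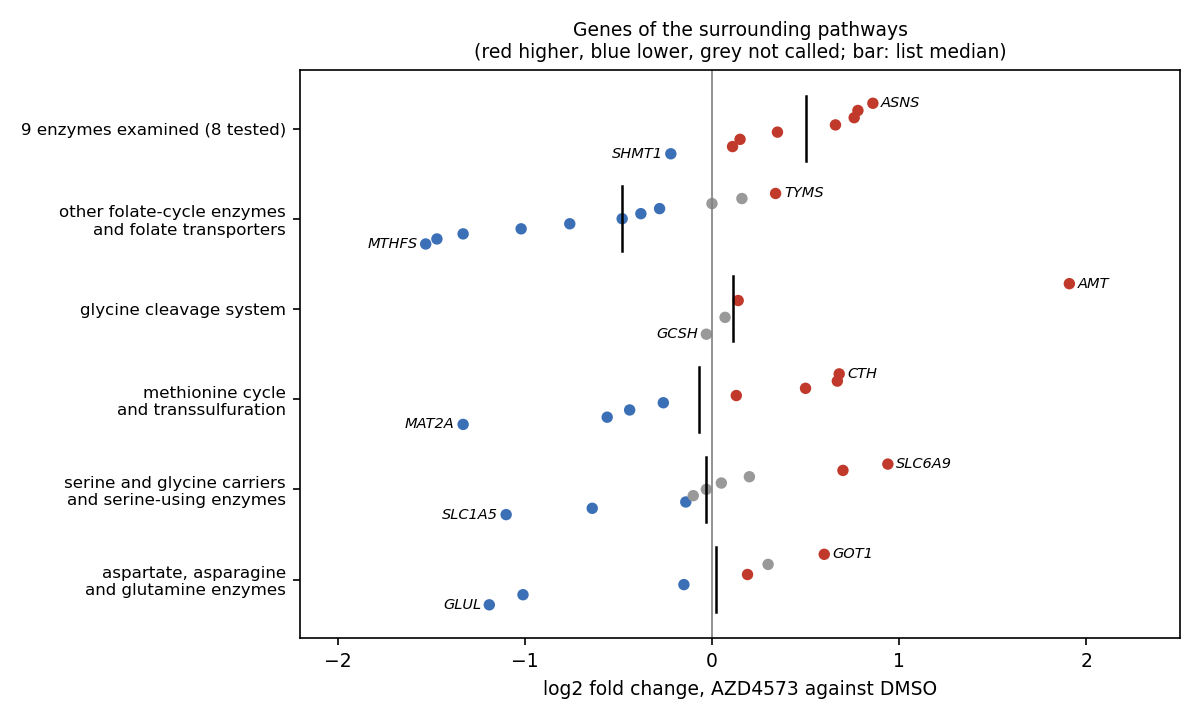
Log2 fold change (AZD4573 against DMSO, TMM) of each tested gene of the 9 enzymes and of the 5 surrounding lists, with the outermost genes of each list named. The bar of the 9 enzymes, over the 8 tested, lies at 0.50, against -0.48 for the other folate-cycle genes and 0.11 or less for the rest.

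All 8 genes of a list of regulators known to act on these genes were tested, and 5 were lower and 3 higher, with a median of -0.31, beside 37.4% lower and 37.3% higher of all tested genes. ATF4, the factor named above, which is controlled largely at translation, was 239.9 ± 10.7 CPM in DMSO and 222.4 ± 4.75 CPM in AZD4573, with overlapping groups (log2 fold change -0.11, edgeR adjusted p = 0.036). That call was lost without DMSO replicate 2 (edgeR adjusted p = 0.11), DMSO replicate 3 (0.090), AZD4573 replicate 1 (0.066) or AZD4573 replicate 3 (0.094), and with at least 10 counts required in every library (0.14). The ATF4 decrease was larger without DMSO replicate 1 (-0.16, edgeR adjusted p = 0.0018) or without the filter (-0.15, 0.0089). It was larger too with library size only (-0.21, edgeR adjusted p = 9.1e-04) and scaled to mitochondrial mRNAs (-0.85, 3.7e-10). DDIT3, an ATF4 target and partner, fell from 11.5 ± 0.324 to 0.633 ± 0.10 CPM (-4.19, adjusted p = 2.4e-11). CEBPB (-0.92), ATF3 (-0.71) and CEBPG (-0.52), which bind the same kind of core, were also called lower. TRIB3, a pseudokinase induced by ATF4, rose by 0.71 (adjusted p = 5.2e-07). NFE2L2, the factor of the oxidative stress response, rose by 1.03 (adjusted p = 4.3e-09), and MYC by 0.17 (adjusted p = 0.014). The MYC call was lost without AZD4573 replicate 2 (edgeR adjusted p = 0.10) or AZD4573 replicate 3 (0.050 after rounding), and with library size only (0.28). Scaled to mitochondrial mRNAs, MYC was called lower (-0.58, edgeR adjusted p = 4.3e-08). On that scale TRIB3 was not called (-0.03, edgeR adjusted p = 0.70), NFE2L2 stayed higher (0.29, 4.9e-04) and DDIT3 stayed lower (-4.93, 1.2e-13). Under TMM, ASNS and TRIB3 were therefore higher in the same libraries in which DDIT3 was lower.

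The genes most like SHMT1 and ASNS, the lowest and the highest member by their own counts, were sought among 9046 genes of at least 10 mean CPM, by the Euclidean distance of their log2 CPM profiles over the 6 libraries, each centred on its DMSO mean. Nearest to ASNS was SLC7A5, the large neutral amino acid carrier, at a distance of 0.0545, with means of 472 and 860 CPM and a log2 fold change of 0.86. NCKAP1L (0.0813) and CCDC146 (0.0873) followed. Nearest to SHMT1 were EPN1 (0.0357), TATDN2 (0.0454) and PTDSS1 (0.0506), the last a phosphatidylserine synthase, with log2 fold changes of -0.22, -0.24 and -0.21.

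The members also differ in length on the genome, a property the choice of genes did not use. Their spans ran from 5.4 kb for SHMT2 to 236.2 kb for MTHFD1L, against a median of 23.2 kb over tested genes. SHMT2 and ASNS (20.9 kb) lay below that median and had log2 fold changes of 0.78 and 0.86. Above it were MTHFD2 (31.4 kb, 0.35), SHMT1 (35.7 kb, -0.22), PSPH (40.6 kb, 0.66), MTHFD1 (75.4 kb, 0.11), PHGDH (95.8 kb, 0.76) and MTHFD1L (0.15). These spans begin at the outermost annotated start. The RefSeq promoters of PHGDH (chr1:119711684-119711983) and MTHFD2 (chr2:74198365-74198664) lie inside them, so transcripts from there are shorter. A link of length with fold change was not tested. Pseudogenes named after the members numbered 18, of which 3 had any count, at most 4 in a library.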

How the data were processed

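Bulk RNA-seq of H9 cells covered 3 DMSO and 3 AZD4573 libraries, grouped by their labels. The supplemental methods state that the authors trimmed reads with Cutadapt 2.3, aligned them to GRCh38 with STAR 2.7.8a and deposited expected counts per gene from RSEM 1.3.3, which are whole numbers and not normalized. The labels name poly(A) RNA and the supplemental methods a ribosomal RNA depletion. RSEM's default ignores strand. The 5 rows that name no gene (reporters) held 0 counts and were left out.

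Counts were compared in R 4.3.3 with edgeR 4.0.16 (filterByExpr with a minimum count of 10, TMM, quasi-likelihood test, Benjamini-Hochberg over 17678 genes, no replicate block). Alternatives were RLE factors, library size only, scaling to the 13 mitochondrially encoded mRNAs, no filter, at least 10 counts in every library, DESeq2 1.42.0, a replicate block, each library left out and a fold change of at least 2. The procedure was also run on simulated counts in which a small set of genes was changed, as many raised as lowered. Such a simulation does not test the scaling where a large share of genes changes, as here. Errors are SD over libraries. Within groups, the chi-square per degree of freedom between libraries was 5.51 to 20.5, above counting noise, so none is a copy. Depths of 52101868 to 76571157 counts put 3 counts at 0.0392 to 0.0576 CPM, which covers counting error only. Positions and exons came from GENCODE release 44 and promoters from RefSeq (GRCh38.p14).

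Genes named were the 9 members, genes of the 6 pathway and regulator lists (at least the lowest and the highest of each), overlapping genes and pseudogenes, and the 3 genes nearest in profile to the lowest and to the highest member. The members and lists were chosen with earlier results of these data known. A further gene of the folate-cycle list is not reported here.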

Additional observations from a re-analysis of the deposited data

How the results depend on the processing

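Scaling to mitochondrially encoded mRNAs turned the direction of PSPH (-0.08, adjusted p = 0.34), MTHFD1 (-0.63), MTHFD1L (-0.58) and MTHFD2 (-0.39) on the log2 scale, and ended the calls of PHGDH (0.02, adjusted p = 0.79), SHMT2 (0.04, adjusted p = 0.51) and ASNS (0.12, adjusted p = 0.12). It gave 4 members lower and 0 higher by edgeR, also 0 at an unadjusted p under 0.05. Over all genes it called 11878 lower and 2144 higher, or 9433 and 1769 with a fold change of at least 1.5. DESeq2 with its own size factors called 7 members higher, beside 6442 of all 17678 tested genes. In the main fit by edgeR with TMM, the counts over all genes depended on the fold as well. A fold change of at least 2 left 2450 lower and 2643 higher. By its construction the scaling to mitochondrially encoded mRNAs shifts all genes by 1 common amount.

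In the pathway lists the scaling to mitochondrially encoded mRNAs called lower 11 folate-cycle genes, 3 genes of glycine cleavage and 5 methionine-cycle genes. It also called lower 6 serine carriers and users, 5 aspartate, asparagine and glutamine genes and 6 regulators. It called higher 0 folate-cycle, 1 glycine cleavage, 0 methionine-cycle, 0 serine carrier and 0 aspartate-group genes and 1 regulator. With library size only, 1 glycine cleavage, 2 methionine-cycle and 1 aspartate-group gene were higher, and without the filter 1 glycine cleavage gene. With at least 10 counts in every library, 2 folate-cycle genes were higher. Over all tested genes, 5741 of 17678 were called higher with library size only, 6904 of 31323 without the filter and 5913 of 15247 with at least 10 counts.

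With library size only, MTHFD1 (0.00, edgeR adjusted p = 0.93) and MTHFD1L (0.05, edgeR adjusted p = 0.24) were not called. That setting lowered all genes by nearly 1 common amount, with their median at -0.08 in place of 0.03. Neither was called without the filter (edgeR adjusted p = 0.34 and 0.065), and the cause of that loss was not tested. Leaving out each library gave 6367 to 6637 genes lower and 6241 to 6577 higher, 1 member lower and 6 to 7 higher, 1 to 2 folate-cycle genes higher (2 without DMSO replicate 1 or AZD4573 replicate 2), 1 to 3 glycine cleavage genes higher and 2 to 4 methionine-cycle genes higher. Regulators numbered 4 to 5 lower, with ATF4 the one lost, and 2 to 3 higher, with MYC lost. MTHFD1 was the member lost, without DMSO replicate 2, DMSO replicate 3 or AZD4573 replicate 3. PHGDH, PSPH, SHMT1, SHMT2, MTHFD1L, MTHFD2 and ASNS kept their calls in each such fit, and the SHMT2 to SHMT1 difference ran from 0.95 to 1.03.

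Same-numbered libraries did not deviate together (correlations -0.0208, 0.0417 and 0.0316), so the numbers are not taken as pairs. With a replicate block 6524 genes were lower and 6447 higher, and the members stayed at 1 lower and 7 higher. PSAT1, at 13 counts or fewer, is limited by depth.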
